A study of Mus musculus with 6 samples.

Results

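The potassium channel genes of mouse pancreatic islets were described across 3 groups of offspring whose mothers had received vehicle or 1 of 2 doses of bisphenol-A (BPA) in pregnancy. Members were the genes whose annotated symbol starts with Kcn, taken where a probe set (the group of short probes that reads 1 transcript on the array) carried that symbol alone, and each gene was represented by the probe set with its highest mean signal. This gave 82 genes out of 18193 genes named by a single symbol. Kcnq1ot1, a noncoding RNA, and 1 further gene with the prefix are not analysed here. Values were Affymetrix array signals from 6 arrays of islets from male wild-type OF-1 mice at postnatal day 30, in 3 groups of 2. BPA, a plastics monomer with estrogen-like activity, was given to the dams from gestation day 9 to day 16, at 10 µg/kg/day in the group BPA10 and at 100 µg/kg/day in the group BPA100, and the group vehicle received none. Vehicle array 1 carried RNA of 5 mice and vehicle array 2 RNA of 1 mouse, BPA10 array 1 RNA of 1 mouse and BPA10 array 2 RNA of 2 mice, and both BPA100 arrays RNA of 1 mouse each. The question of the series concerns beta cell growth, early in life, after exposure before birth. Litters are not given in the labels, so all p-values measure only the spread between these arrays, part of which may be technical.

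Potassium channels let potassium ions leave a cell and so pull its membrane voltage down. In a beta cell, closing of the ATP-sensitive potassium channel when glucose is metabolised allows the firing that opens calcium channels and releases insulin, and voltage-gated (Kv), calcium-activated and tandem-pore potassium channels then shape and end the firing. Inward rectifiers hold the resting voltage, tandem-pore (K2P) channels carry leak current, Kv channels open on depolarisation, calcium-activated channels open when calcium enters, and auxiliary subunits change how the pore subunits gate. Silent Kv subunits form no channel alone and modify other Kv pores.

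No potassium channel gene passed the test at either dose. With limma and Benjamini-Hochberg adjustment over 27022 probe sets, 0 of 44 tested members had an adjusted p under 0.05 at either dose against vehicle, between the doses, or in the test over 3 groups. The background was the same, as 0.00% of all probe sets passed in each of these. At an unadjusted p under 0.05 there were 1914 (BPA10 against vehicle), 1075 (BPA100 against vehicle), 1283 (between the doses) and 1412 (3 groups) probe sets, with a smallest adjusted p of 0.182, 0.200, 0.897 and 0.342 in that order. Differences below are therefore measured values that did not pass, given as differences of mean log2(signal + 1) ± the moderated standard error (SE), with 2 arrays in each group. Both comparisons with vehicle use the same vehicle arrays, so a high or low vehicle array moves both. Single arrays weighed heavily: of 64 gene differences printed here, 46 moved by over 1.5 times or turned when 1 array was left out.

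Of the 82 genes, 44 had a mean signal at or above the filter that kept the upper 60% of probe sets, a share of 53.7% against 72.5% of all genes. The filter lay at a mean log2 value of 4.60, or a signal of 23.3. Tested members numbered 8 of 14 inward rectifiers, 7 of 12 K2P channels, 10 of 13 conducting Kv subunits and 2 of 9 silent Kv subunits. They also included 4 of 6 channels of the EAG and ERG families and 1 of 3 KCNQ channels. The rest were 4 of 8 calcium- or sodium-activated channels with their relatives and 8 of 15 auxiliary subunits. Neither of the 2 noncoding transcripts, Kcnmb4os1 and Kcnmb4os2, was tested. The 38 untested members had signals between 0 and 73 on single arrays. Dim probe sets also varied more within a group: the median gap between the arrays of a group was 0.41 (log2) in vehicle, 0.50 in BPA10 and 0.34 in BPA100 over the tested members, and 0.51, 0.87 and 0.73 over the untested ones. Over all 13193 genes tested it was 0.20, 0.22 and 0.22. The median SE of a difference was 0.32 for tested members and 0.24 for all probe sets.

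**Figure D1:**
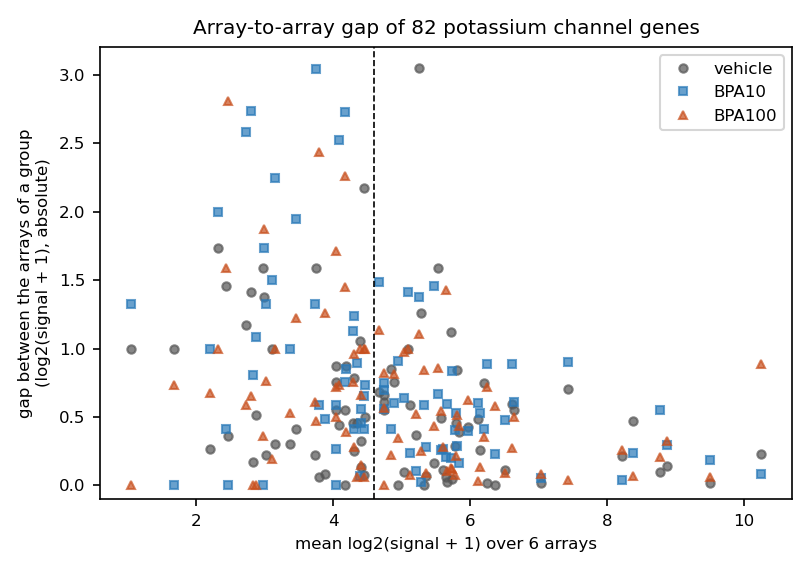
Absolute gap between the arrays of a group (vertical axis, log2(signal + 1)) against mean log2(signal + 1) over the 6 arrays (horizontal axis) for 82 potassium channel genes, with 1 point per gene and group. The dashed line is the filter at 4.60, and the gaps of untested genes on its left reach further up than those of most tested genes on its right, apart from the vehicle gap of Kcnj9.

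The islet label was checked against hormone genes. Signals of Iapp, which encodes the beta cell peptide amylin, lay between 9386 and 12296, those of glucagon (Gcg) between 8754 and 12171 and those of somatostatin (Sst) between 7717 and 10282 on the 6 arrays. Many genes of digestive enzyme-producing acinar cells were also bright, but Rbpjl read 12 to 95 and Ptf1a 30 to 731. Of 26 acinar genes listed, 21 were found, all with signals above 0 on every array. Their summed signal was 126053 and 71362 on the vehicle arrays, 176185 and 160258 on the BPA10 arrays and 165464 and 96985 on the BPA100 arrays. All 21 were above vehicle in BPA10, 18 of them at an unadjusted p under 0.05 in limma. In BPA100 19 were above vehicle, 2 of them at that p. Over all genes 3.71% were higher at that p in BPA10 and 2.35% in BPA100. Most endocrine genes also stood above vehicle in BPA10. Of the tested ones these were 10 of 12 for beta cells, 4 of 6 for alpha cells and 4 of 6 for delta and PP cells. The BPA10 medians were 0.93 for acinar genes and 0.19, 0.21 and 0.15 for these lists. In whole islets, fewer cells of a type and less RNA per cell cannot be told apart. What part the acinar signal has in the values below was not tested.

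The tandem-pore channels held the largest difference among the tested members. Kcnk13 encodes the leak channel THIK-1, which is known for its role in microglia. Its signal was 23 and 9 on the vehicle arrays, 59 and 60 on the BPA10 arrays and 67 and 56 on the BPA100 arrays. All 4 BPA arrays lay above both vehicle arrays, and the lower of the vehicle arrays was the one of a single mouse. Both vehicle signals lay under the filter signal of 23.3, so the gene was tested because of its BPA arrays, and its folds are taken over dim vehicle values. In all, 7 tested members had a group mean under that signal: Kcnk13, Kcnj9, Kcnj13 and Kcnc1 in vehicle, Kcnk15 in both BPA groups, Kcnd2 in BPA10 and Kcna6 in BPA100. The Kcnk13 difference from vehicle was 1.97 ± 0.42 in BPA10 (3.91-fold, unadjusted p = 0.00146, adjusted p = 0.434) and 2.01 ± 0.42 in BPA100 (4.02-fold, unadjusted p = 0.00128, adjusted p = 0.908). BPA100 and BPA10 differed by 0.04 ± 0.42. Without vehicle array 2 the differences were 1.33 and 1.38, and without vehicle array 1 they were 2.60 and 2.64. Over 14 alternative settings they ran from 1.27 to 2.60 in BPA10 and from 1.31 to 2.64 in BPA100, with adjusted p-values from 0.159 to 1 and from 0.216 to 1. Kcnk13 is named here because an earlier look at these arrays had singled it out, so its p-values are no independent support.

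A second probe set of Kcnk13, below the filter and so not tested, did not show this difference. It read 16 and 8 on the vehicle arrays, 12 and 16 on the BPA10 arrays and 14 and 13 on the BPA100 arrays, so the BPA arrays overlapped vehicle. Its differences from vehicle were 0.27 in BPA10 and 0.23 in BPA100. Macrophages and microglia are related cells, so the 16 genes of a macrophage and myeloid marker list are given beside it. Their summed signal was 5977 and 2613 on the vehicle arrays, 4438 and 3015 on the BPA10 arrays and 2397 and 3063 on the BPA100 arrays. None was at 0, and vehicle array 1 had the highest sum. That sum leaned on Lyz1 and Lyz2, at 2003 and 803 there, 261 and 142 on vehicle array 2 and 731 and 274 on BPA10 array 1. Of the 15 tested genes of the list, 9 were above and 6 below vehicle in BPA10, and 3 above and 12 below in BPA100. Their part in the Kcnk13 values was not tested.

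Kcnk12 encodes THIK-2, the closest relative of THIK-1, which can assemble with it. Its signal ran the other way, at 66 and 87 on the vehicle arrays, 45 and 40 on the BPA10 arrays and 47 and 64 on the BPA100 arrays. All 4 BPA arrays lay below both vehicle arrays, and the BPA10 arrays lay lowest. The difference from vehicle was -0.82 ± 0.28 in BPA10 (unadjusted p = 0.0176, adjusted p = 0.656) and -0.46 ± 0.28 in BPA100 (unadjusted p = 0.137, adjusted p = 1). Without vehicle array 2 the BPA10 difference was -0.63 (unadjusted p = 0.124).

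The sequences before the transcription starts of these genes are shown because the pair had the largest higher and the largest lower difference in BPA10 among the tested members; they were chosen after those values were seen. The sequences and starts are RefSeq's, on GRCm38.p6, for the 250 bases before the start, 5′ to 3′ on the strand of the gene, with CG pairs in capitals. The Kcnk13 window is chr12:99964249-99964498 on the + strand and holds 8 CG pairs. The Kcnk12 window is chr17:87797995-87798244 on the - strand and holds 16.
Kcnk13: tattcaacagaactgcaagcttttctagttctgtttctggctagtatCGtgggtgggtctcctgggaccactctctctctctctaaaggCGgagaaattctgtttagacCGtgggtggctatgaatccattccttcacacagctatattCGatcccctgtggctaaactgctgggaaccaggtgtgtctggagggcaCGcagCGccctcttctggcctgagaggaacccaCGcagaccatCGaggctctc
Kcnk12: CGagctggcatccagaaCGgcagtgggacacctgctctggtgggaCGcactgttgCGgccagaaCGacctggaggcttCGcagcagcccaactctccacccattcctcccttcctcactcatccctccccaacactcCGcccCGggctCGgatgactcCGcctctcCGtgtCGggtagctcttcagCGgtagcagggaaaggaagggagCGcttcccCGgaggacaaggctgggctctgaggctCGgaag
Over the 300 bases from 250 before to 50 after the start, GC content was 52.7% for Kcnk13 and 64.3% for Kcnk12, against a median of 52.7% over 32851 mouse windows of that length. The palindromic estrogen response element GGTCANNNTGACC, searched on both strands, was in neither window and in 23 windows, or 0.07%, in all. Its arm with 1 base more, AGGTCA, which can overlap the palindrome, was in neither window and in 16.3% of all windows. The cAMP response element TGACGTCA was in neither and in 1.79% of all. Of 88 windows of 63 potassium channel genes, 0 held the palindrome, 5 held AGGTCA and 0 held the cAMP response element. These matches describe letters in a window only.

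Kcnk3, the acid-sensitive channel TASK-1, was the other K2P gene at an unadjusted p under 0.05 in BPA100. Its signal was 35 and 43 on the vehicle arrays, 64 and 48 on the BPA10 arrays and 74 and 70 on the BPA100 arrays. The BPA arrays lay above both vehicle arrays at each dose, and the BPA100 arrays lay above the BPA10 arrays. The difference from vehicle was 0.50 ± 0.27 in BPA10 (unadjusted p = 0.0977) and 0.87 ± 0.27 in BPA100 (unadjusted p = 0.0112, adjusted p = 1). Without vehicle array 1 the BPA100 difference was 0.73 (unadjusted p = 0.0637). BPA100 minus BPA10 was 0.37 ± 0.27. Other Kcnk3 probe sets, below the filter and so not tested, differed from vehicle by -0.93 and 0.66 in BPA10. In BPA100 they differed by 0.50 and 0.29, and their arrays overlapped vehicle at each dose. Between the doses they differed by 1.43, without overlap, and -0.37, with overlap, at signals of 1 to 28.

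Kcnk16 encodes TALK-1, a K2P channel of beta cells that limits their calcium entry. Signals were 682 and 692 on the vehicle arrays, 721 and 821 on the BPA10 arrays and 744 and 714 on the BPA100 arrays. Every BPA array was above both vehicle arrays by a small margin, with differences of 0.16 ± 0.13 and 0.09 ± 0.13. Kcnk1 (TWIK-1), also a leak channel, read 459 and 417, then 568 and 463, then 520 and 415 in the same order of arrays, with differences of 0.23 ± 0.17 and 0.09 ± 0.17. Its BPA100 arrays overlapped vehicle. For Kcnk6 (TWIK-2) the signals were 100 and 68 in vehicle, 162 and 106 in BPA10 and 108 and 76 in BPA100, and the BPA10 difference was 0.66 ± 0.30 (unadjusted p = 0.0572). Kcnk15 (TASK-5), which gives no current alone, read 43 and 29 in vehicle, 18 and 27 in BPA10 and 16 and 29 in BPA100, with a BPA10 difference of -0.66 ± 0.44.

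Of the 7 tested K2P genes, 5 were above vehicle and 2 below at each dose. At an unadjusted p under 0.05 they counted 1 higher and 1 lower in BPA10, and 2 higher and 0 lower in BPA100. Over all genes the shares at that p were 3.71% higher and 2.30% lower in BPA10, and 2.35% and 1.78% in BPA100. The median K2P difference was 0.23 in BPA10 and 0.09 in BPA100, while over all genes tested it was 0.02 and -0.00058. The mechanosensitive channels Kcnk2 (TREK-1) and Kcnk10 (TREK-2) and the alkaline-activated Kcnk5 (TASK-2) were not tested. Kcnk2 read between 10 and 29, Kcnk10 between 3 and 35 and Kcnk5 between 13 and 32 over the 6 arrays. At BPA100 the signals of Kcnk10 (35 and 25) lay above those in vehicle (3 and 11) and those of Kcnk5 (13 and 16) below (17 and 30), all near or under the filter. A second Kcnk5 probe set did not show this, at 21 and 8 in vehicle and 18 and 16 in BPA100, with overlap. A second one of Kcnk10 read 5 and 5 in vehicle and 17 and 18 in BPA100.

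**Figure D2:**
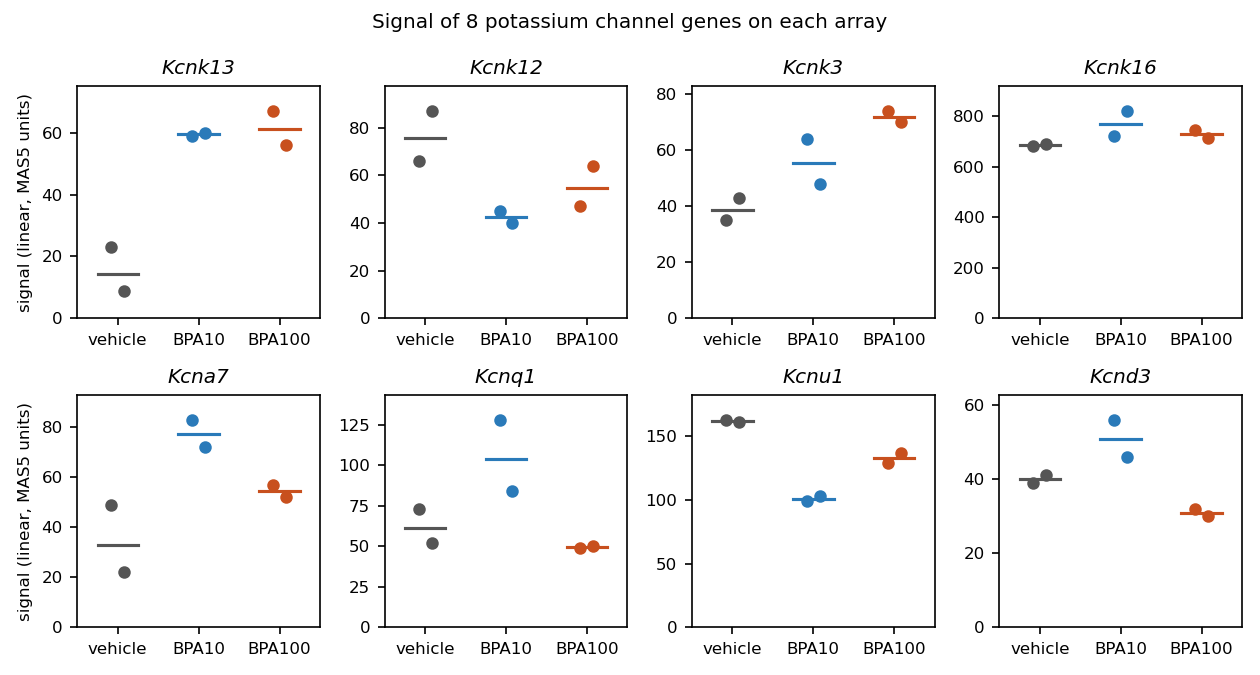
Signal on each array (points, linear MAS5 units, vertical axes from 0) of 8 potassium channel genes in the groups vehicle, BPA10 and BPA100, with the back-transformed mean of log2(signal + 1) as a line; the genes are those at an unadjusted p under 0.05 in a pairwise comparison plus Kcnk16. The Kcnk13 signals of 56 to 67 on the 4 BPA arrays stand above 23 and 9 in vehicle, while those of Kcnu1 and Kcnk12 stand below vehicle at each dose.

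Among tested Kv channels the highest difference from vehicle was that of Kcna7, a Shaker-type subunit. Its signal was 49 and 22 in vehicle, 83 and 72 in BPA10 and 57 and 52 in BPA100. All 4 BPA arrays were above both vehicle arrays, by 1.21 ± 0.37 in BPA10 (2.31-fold, unadjusted p = 0.0109, adjusted p = 0.617) and 0.71 ± 0.37 in BPA100 (unadjusted p = 0.0909). As for Kcnk13, the lower vehicle array was the one of a single mouse, and without it the differences were 0.65 and 0.15. Kcna5, a delayed rectifier of the same family, read 54 and 40 in vehicle, 82 and 62 in BPA10 and 56 and 87 in BPA100. Its differences were 0.61 ± 0.31 and 0.58 ± 0.31, with no overlap between the BPA and vehicle arrays.

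Kcnd2 and Kcnd3 encode pores of the fast-inactivating A-type current. Kcnd2 read 35 and 35 in vehicle, 29 and 15 in BPA10 and 41 and 32 in BPA100. Its BPA10 difference of -0.72 ± 0.40 (unadjusted p = 0.107 in limma) was -1.17 without BPA10 array 1 and -0.26 without BPA10 array 2. A second tested probe set of Kcnd2 read 30 and 23 in vehicle, 29 and 22 in BPA10 and 22 and 46 in BPA100. It overlapped in each comparison, with a BPA10 difference of -0.05 ± 0.44. Kcnd3 read 39 and 41 in vehicle, 56 and 46 in BPA10 and 32 and 30 in BPA100, so its BPA10 arrays were the highest and its BPA100 arrays the lowest. BPA100 minus vehicle was -0.36 ± 0.29 for Kcnd3. Of the remaining named Kv subunits, Kcna1 (Shaker type) read between 75 and 126, Kcna2 (the same family) between 36 and 58, with a BPA100 difference of -0.38 ± 0.27, and the fast-spiking subunit Kcnc2 between 40 and 85. Of 10 tested conducting Kv genes, 6 were above and 4 below vehicle in BPA10, and 4 above and 6 below in BPA100. At an unadjusted p under 0.05 there was 1 (Kcna7) in BPA10 and 0 in BPA100. Of all genes, 3.71% were higher and 2.30% lower at that p in BPA10, and 2.35% and 1.78% in BPA100. The medians of the conducting Kv genes were 0.15 and -0.12. The silent subunits Kcng2, at 45 to 71, and Kcns3, at 18 to 46, overlapped between all 3 groups.

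Kcnq1, the pore of the slow delayed rectifier in heart and of epithelial potassium transport, was the only KCNQ gene tested. It read 73 and 52 in vehicle, 128 and 84 in BPA10 and 49 and 50 in BPA100. BPA10 lay above and BPA100 below vehicle with no overlap, by 0.74 ± 0.29 (unadjusted p = 0.0313, adjusted p = 0.683) and -0.31 ± 0.29 (unadjusted p = 0.310). The BPA10 difference was 0.44 (unadjusted p = 0.209) without BPA10 array 1 and 0.50 (unadjusted p = 0.185) without vehicle array 2. The BPA100 difference was -0.07 without vehicle array 1. Kcnq5, of the neuronal M-current, read between 17 and 27 and was not tested. The groups of the fibroblast and stellate cell list stood in the same order: relative to vehicle its mean was 0.19 and -0.19 on the vehicle arrays, 0.55 and -0.03 in BPA10 and -0.37 and -0.63 in BPA100, with summed signals of 14308 and 12602, 19848 and 13586, and 12170 and 10432. Of its 20 genes, 15 were above vehicle in BPA10 and 18 below it in BPA100, none with a signal of 0. The duct cell list had means of -0.12 and 0.12 on the vehicle arrays, 0.44 and -0.0038 in BPA10 and -0.10 and -0.58 in BPA100, with summed signals of 7541 and 9034, 8663 and 8035, and 7372 and 6828. Of its 8 tested genes, 4 were above and 4 below vehicle in BPA10, and 7 below it in BPA100. The part of either list in the Kcnq1 and Kcnd3 values was not tested.

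Kcnh2, the ERG channel that repolarises heart muscle and beta cells, read 295 and 342 in vehicle, 275 and 283 in BPA10 and 269 and 322 in BPA100. Its differences were -0.19 ± 0.16 and -0.11 ± 0.16, and the BPA100 arrays overlapped vehicle. Kcnh1 (EAG) read 235 and 144 in vehicle, 97 and 182 in BPA10 and 212 and 206 in BPA100, with a BPA10 difference of -0.47 ± 0.32 that was -0.016 without BPA10 array 1 and -0.92 without BPA10 array 2. Kcnh8 (ELK) read 69 and 66 in vehicle, 51 and 44 in BPA10 and 22 and 61 in BPA100, below vehicle at each dose by -0.50 ± 0.43 and -0.86 ± 0.43. The Kcnh8 value at the higher dose rested on BPA100 array 1, without which it was -0.14. Of the 4 tested genes of these families, 3 were below vehicle in BPA10 and 2 in BPA100, with medians of -0.33 and 0.04. At an unadjusted p under 0.05 there were 0. Of all genes, 3.71% were higher and 2.30% lower at that p in BPA10, and 2.35% and 1.78% in BPA100.

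Among the tested calcium- or sodium-activated channels and their relatives, Kcnu1 had the lowest difference from vehicle. It encodes Slo3, a relative of the BK channel known from sperm, and is in this class by family, not by what opens it. Its signal was 163 and 161 in vehicle, 99 and 103 in BPA10 and 129 and 137 in BPA100. The groups did not overlap, and the BPA10 arrays were the lowest, with BPA100 between them and vehicle. The difference was -0.68 ± 0.17 in BPA10 (unadjusted p = 0.00419, adjusted p = 0.557) and -0.28 ± 0.17 in BPA100 (unadjusted p = 0.140). In BPA10 it lay between -0.705 and -0.606 under all 16 alternative settings, with an unadjusted p under 0.05 in each and adjusted p-values from 0.243 to 1.

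Kcnma1, the pore of the large-conductance BK channel, read 265 and 367 in vehicle, 274 and 323 in BPA10 and 380 and 399 in BPA100. Its differences were -0.07 ± 0.19 and 0.32 ± 0.19, and only the BPA100 arrays lay outside the vehicle range. Among the 4 tested genes of the class, 2 were above and 2 below vehicle at each dose, with medians of -0.0049 and 0.14. The small-conductance channels Kcnn1 and Kcnn3 and the intermediate-conductance channel Kcnn4 were not tested, at signals of 12 to 33, 1 to 4 and 4 to 52.

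Inward rectifiers showed wide spreads. The G protein-gated subunits Kcnj3 and Kcnj6 read 19 to 57 and 23 to 39, and Kcnj5, at 11 to 32, was not tested. Kcnj8, a pore of ATP-sensitive channels in vascular smooth muscle, read 57 and 56 in vehicle, 67 and 44 in BPA10 and 41 and 38 in BPA100. Its BPA100 arrays lay below all the others, at -0.51 ± 0.29 from vehicle (unadjusted p = 0.117). Kcnj10, a glial rectifier, read 58 and 60 in vehicle, 31 and 56 in BPA10 and 61 and 56 in BPA100, so its BPA10 arrays lay below vehicle. Kcnj12, of the strong rectifiers, read between 67 and 125, with overlap between all 3 groups. Of the 8 tested genes 5 were above and 3 below vehicle at each dose, with 0 at an unadjusted p under 0.05. Of all genes, 3.71% were higher and 2.30% lower at that p in BPA10, and 2.35% and 1.78% in BPA100. The medians of the 8 tested rectifier genes were 0.30 and 0.41. The mean over these genes stood at 0.46 and -0.46 on the vehicle arrays, 0.43 and 0.19 in BPA10 and 0.47 and 0.37 in BPA100. Vehicle array 1 was thus within the range of the BPA arrays, and vehicle array 2 alone was low.

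Kcnj9 and Kcnj4, outside the rule for named genes, were picked after their values were seen, because with Kcnk13 and Kcna7 they were the 4 tested members past 2-fold against vehicle. Kcnj9, a G protein-gated subunit, read 57 and 6 in vehicle, 77 and 29 in BPA10 and 83 and 38 in BPA100. Its differences of 1.26 ± 0.91 and 1.51 ± 0.91 turned to -0.26 and -0.02 without vehicle array 2. Kcnj4, a strong rectifier, read 53 and 17 in vehicle, 38 and 61 in BPA10 and 86 and 47 in BPA100, with differences of 0.66 ± 0.54 and 1.05 ± 0.54 that became -0.14 and 0.26 without that array. Both genes had overlapping arrays at each dose.

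The auxiliary subunits of highest signal, Kcnmb2 and Kcnip1, had small differences at the brightest of their probe sets. Over all 8 tested ones the differences ran from -0.25 to 0.50 in BPA10 and from -0.21 to 0.47 in BPA100. Kcnmb2, the beta subunit that makes BK channels inactivate, read 1241 and 1458 in vehicle, 1097 and 1161 in BPA10 and 857 and 1589 in BPA100, with differences of -0.25 ± 0.25 and -0.20 ± 0.25. The BPA10 arrays lay below vehicle and the BPA100 arrays on either side of it. Kcnip1, a calcium-binding partner of A-type pores, read 447 and 417, 354 and 520, and 478 and 414 in the same order, with differences of -0.01 ± 0.19 and 0.04 ± 0.19. Kcnab3, a beta subunit of Shaker-type channels, read 70 and 69 in vehicle, 46 and 86 in BPA10 and 75 and 124 in BPA100, at 0.47 ± 0.35 from vehicle in BPA100. Kcnip3, which also acts as a calcium-dependent transcriptional repressor, and the smooth muscle BK subunit Kcnmb1 were not tested, at 4 to 26 and 7 to 45. Of the 8 tested auxiliary genes 5 were above and 3 below vehicle at each dose, with medians of 0.11 and 0.03. At an unadjusted p under 0.05 there were 0. Of all genes, 3.71% were higher and 2.30% lower at that p in BPA10, and 2.35% and 1.78% in BPA100.

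Different probe sets of a gene did not always give the same sign. Among 12 genes with at least 2 tested probe sets, both signs occurred in 5 in BPA10 and in 4 in BPA100. Kcnma1 had 5 probe sets. Its other 3 tested ones differed from vehicle by -0.50, -0.39 and -1.04 in BPA10, and by -0.17, 0.23 and -0.51 in BPA100. Its untested one read 41 and 61 in vehicle, 6 and 7 in BPA10 and 28 and 25 in BPA100, below vehicle without overlap. Kcnmb2 had a second probe set at 1250 and 1197 in vehicle, 821 and 942 in BPA10 and 1068 and 900 in BPA100. All 4 BPA arrays lay below vehicle there, by -0.48 ± 0.14 in BPA10 (unadjusted p = 0.00863, adjusted p = 0.592) and -0.32 ± 0.14 in BPA100. The second probe set of Kcnk1 read 153 and 153 in vehicle, 278 and 189 in BPA10 and 216 and 175 in BPA100, above vehicle by 0.58 ± 0.22 and 0.34 ± 0.22. Which exons or transcript ends these probe sets read was not analysed here.

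**Figure D3:**
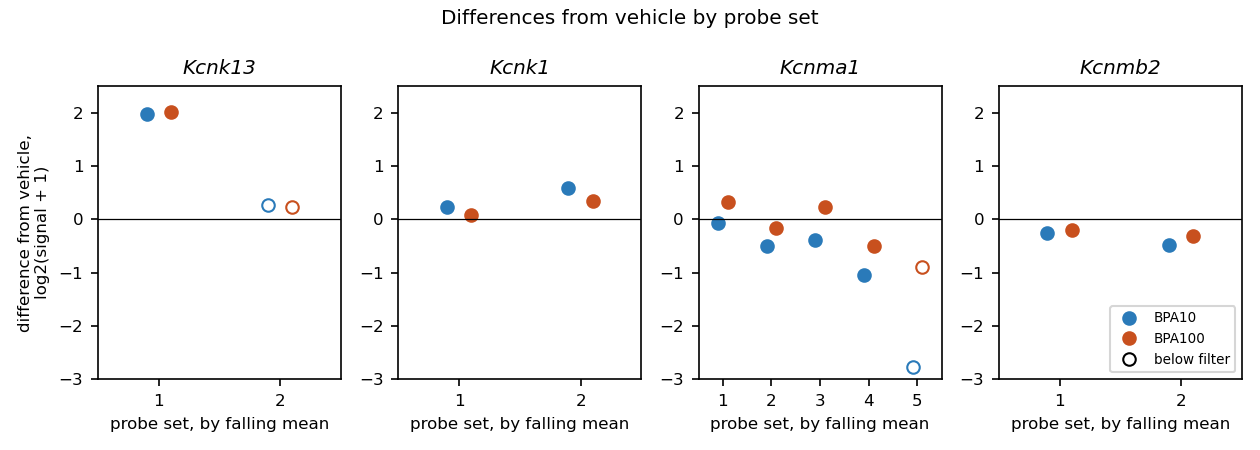
Difference from vehicle (vertical axis, log2(signal + 1)) of each probe set of Kcnk13, Kcnk1, Kcnma1 and Kcnmb2, numbered by falling mean signal, for BPA10 and BPA100; open points are probe sets below the filter, and no error is drawn. The probe sets of Kcnk13 stand apart, at 1.97 and 2.01 against 0.27 and 0.23, and those of Kcnma1 run from -0.07 to -2.77 in BPA10.

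Set against all genes, the members in BPA10 were 3 of 44 higher at an unadjusted p under 0.05 (Kcnk13, Kcna7 and Kcnq1), or 6.82% against 3.71% of all genes, and 2 lower (Kcnk12 and Kcnu1), or 4.55% against 2.30%. These are few genes: the total of 5 became 9 without vehicle array 1, 2 without vehicle array 2 and 9 without BPA10 array 2. Arrays of BPA10 and vehicle did not overlap for 18 members, 10 higher and 8 lower, or 40.9% against 35.5% of all genes. The median member difference was 0.13, with 27 above and 17 below 0. It was 0.02 without vehicle array 2 and 0.23 without BPA10 array 2. The mean over the tested members stood at 0.14 and -0.14 on the vehicle arrays around their own mean, and at 0.16 and 0.12 on the BPA10 arrays, so vehicle array 1 was as high as the BPA10 arrays.

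In BPA100 there were 2 of 44 members higher at an unadjusted p under 0.05 (Kcnk13 and Kcnk3), or 4.55% against 2.35% of all genes, and 0 lower, against 1.78%. The total of 2 became 4 without vehicle array 1 and 4 without BPA100 array 2. Arrays did not overlap for 17 members, 8 higher and 9 lower, or 38.6% against 31.6% of all genes. The median was 0.04, with 24 above and 20 below 0, and -0.03 without vehicle array 2. The members' means on the BPA100 arrays were 0.03 and 0.19, against 0.14 and -0.14 on the vehicle arrays. Outside the rule for named genes, and without Kcnj4 and Kcnj9, were 12 tested members, Kcnj13, Kcnc1 and Kcna6 among them. They lay between -0.50 and 0.62 in BPA10 and between -0.39 and 0.41 in BPA100.

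**Figure D4:**
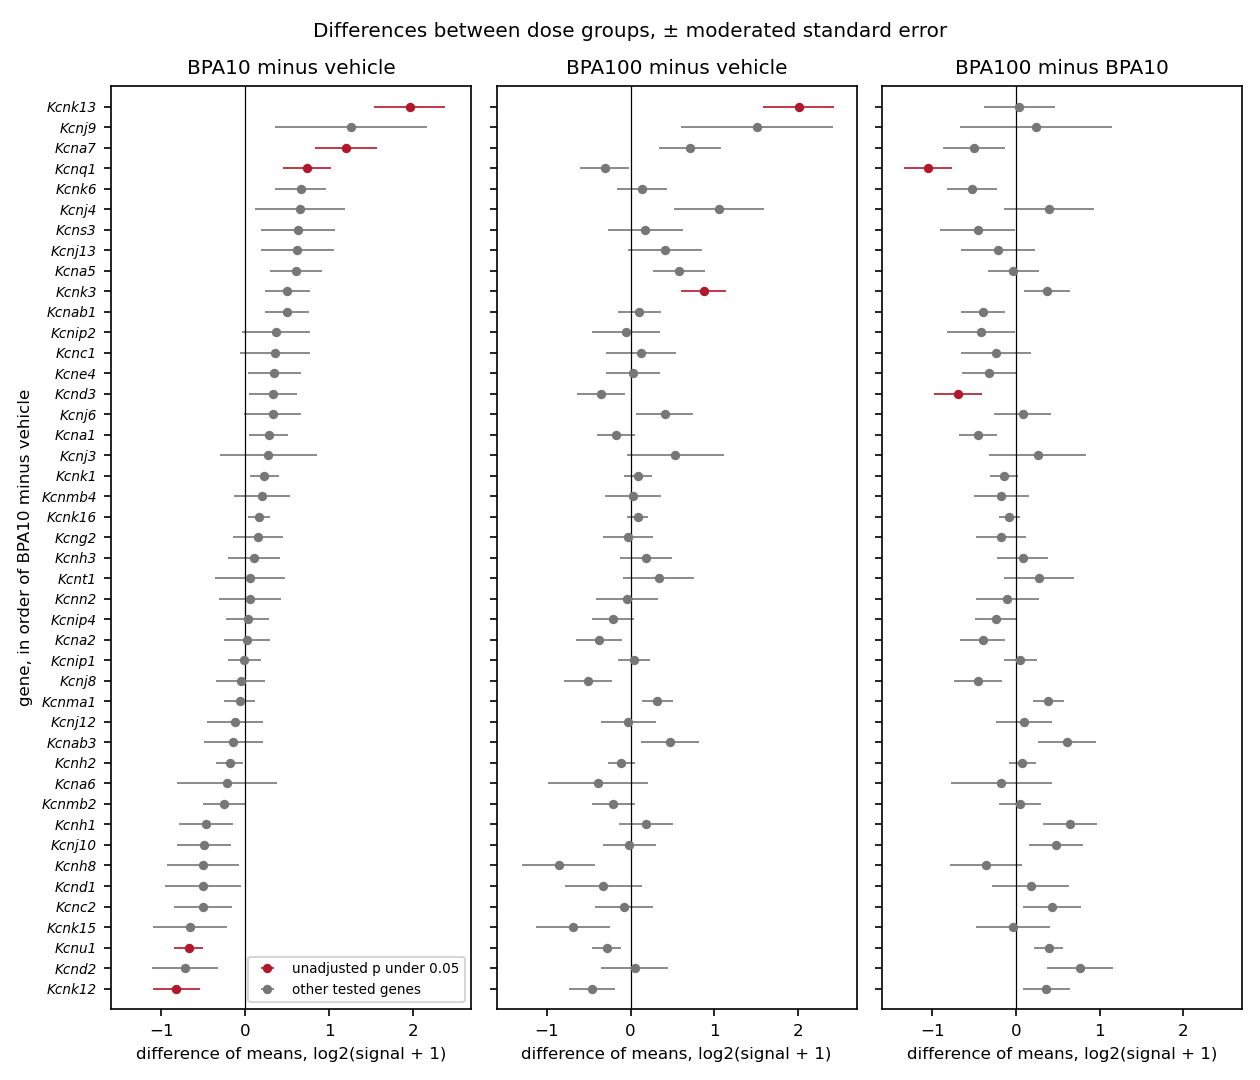
Differences of group means (horizontal axes, log2(signal + 1), same range in each panel) with moderated standard errors as bars for the 44 tested potassium channel genes, in the order of BPA10 minus vehicle; red marks an unadjusted p under 0.05, and no gene passed after adjustment. Kcnk13 is at 1.97 and 2.01 in the comparisons with vehicle, which share the vehicle arrays, and at 0.04 between the doses.

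Between the doses, 0 of 44 members were higher in BPA100 than in BPA10 at an unadjusted p under 0.05, against 1.66% of all genes, and 2 were lower (Kcnq1 and Kcnd3), or 4.55% against 2.65%. The total of 2 became 9 without BPA10 array 2, 1 without BPA10 array 1 and 4 in the fit with the replicate number as a block. Kcnq1 differed by -1.05 ± 0.29 (2.07-fold lower in BPA100, unadjusted p = 0.00588, adjusted p = 0.964) and Kcnd3 by -0.69 ± 0.29 (unadjusted p = 0.0400, adjusted p = 0.964). Other Kcnd3 probe sets, below the filter and so not tested, differed by 0.97, -0.21 and 1.29 at signals of 2 to 20. Those at 0.97 and 1.29 were higher in BPA100 without overlap. Arrays of the doses did not overlap for 15 members, 7 higher and 8 lower in BPA100, or 34.1% against 30.4% of all genes. The others named on the lower side were Kcna7 at -0.50 ± 0.37, Kcna1 at -0.45 ± 0.23 and Kcnj8 at -0.45 ± 0.29. On the higher side were Kcnd2 at 0.76 ± 0.40, Kcnh1 at 0.65 ± 0.32, Kcnc2 at 0.43 ± 0.35, Kcnu1 at 0.39 ± 0.17 and Kcnma1 at 0.39 ± 0.19. The second tested probe set of Kcnd2 was at 0.32 ± 0.44, with overlap between the doses. Further tested probe sets of Kcna1 were at -0.18, -0.25 and 0.00095, each with overlap between the doses. The median member difference was -0.03, and -0.22 without BPA100 array 2.

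Other genes that handle potassium or partner these channels were read from a list of 42, of which 32 were found and 25 tested. It holds channel partners, sodium-potassium pump subunits with their FXYD regulators, potassium-chloride cotransporters and the kinases that control them. In BPA10, 0 were higher and 1 lower at an unadjusted p under 0.05, and in BPA100 2 were higher and 1 lower, with none passing after adjustment and medians of 0.08 and 0.04. Over all genes the shares at that p were 3.71% higher and 2.30% lower in BPA10, and 2.35% and 1.78% in BPA100. Fxyd3, a regulator of the sodium-potassium pump, read 701 and 650 in vehicle, 689 and 513 in BPA10 and 325 and 342 in BPA100. Its BPA100 arrays lay below all the others, at -1.02 ± 0.17 from vehicle (unadjusted p = 2.3e-04, adjusted p = 0.469). The neuronal potassium-chloride cotransporter Slc12a5 read 179 and 178 in vehicle, 115 and 116 in BPA10 and 107 and 197 in BPA100, at -0.62 ± 0.27 in BPA10 (unadjusted p = 0.0486) and -0.30 ± 0.27 in BPA100. Dpp10, a partner of A-type pores, read 202 and 188, 265 and 198, and 238 and 379, at 0.62 ± 0.24 in BPA100 (unadjusted p = 0.0322). Without BPA100 array 2 it was at 0.29 (unadjusted p = 0.264).

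The remaining named genes of that list had unadjusted p-values above 0.05 in limma. In BPA10 they were Lrrc52, a partner of the Slo3 channel, at 0.73 ± 0.41, the cotransporter Slc12a4 at 0.40 ± 0.32, the pump regulator Fxyd1 at 0.39 ± 0.28, the stomach proton-potassium pump Atp4a at -0.27 ± 0.29 and the anchoring protein Akap9 at -0.25 ± 0.16. In BPA100 they were the pump subunit Atp1b2 at 0.45 ± 0.20, the A-type partner Dpp6 at 0.38 ± 0.18 and Atp4a at -0.32 ± 0.29. Lrrc52 was dim, at 23 and 19 in vehicle, both under the filter signal of 23.3, and 39 and 32 in BPA10. Atp1b3, another pump subunit, was the second gene higher at an unadjusted p under 0.05 in BPA100 and falls outside the rule for named genes. Its signals were 998 and 1169 in vehicle, 1153 and 1305 in BPA10 and 1496 and 1277 in BPA100.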

How the data were processed

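The authors deposited a linear intensity for each probe set on each array. Per the submitters' processing notes these are MAS5 values; the sources used here give no version. They are whole numbers scaled to a trimmed mean of 150.0 on every array. Median signals were 33 to 40, and the correlation of arrays was 0.968 within each group and 0.945 to 0.975 between groups. A platform annotation gave gene symbols, and 64 control probe sets were left out.

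Values were taken as log2(signal + 1), which understates changes of dim probe sets. limma 3.58.1 in R 4.3.3 (lmFit, eBayes with an intensity trend) was fitted to the 27022 probe sets at or above the 40th percentile of mean log2 values, with 3 group means over all 6 arrays, 3 residual and 5.4 prior degrees of freedom, 2-sided tests and Benjamini-Hochberg adjustment over all probe sets (threshold 0.05). It was tested on simulated data. The number of arrays limits the precision: 2 arrays against 2 cannot give a permutation p below 0.333. No test over a gene list was made.

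The members and lists were chosen with earlier results of these data known. Named genes were Kcnk13, the 5 largest differences in each direction per comparison without overlap of arrays, the 2 genes of highest signal per class, and 25 islet channel genes, of which 21 were found; the others are not analysed here. In the list of other potassium-handling genes, the 3 largest in each direction per comparison with vehicle were named. The alternatives were quantile normalization, median centring, no filter or the 60th percentile as filter, a pseudocount of 16, eBayes without the trend, averaging the probe sets of each gene, only the groups compared, the replicate number as a block, only arrays of 1 mouse, and leaving out each array.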

Additional observations from a re-analysis of the deposited data

How the results depend on the processing

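Under all 16 alternatives, 0 potassium channel genes passed in any comparison or in the test over 3 groups, which could not be run with only the groups compared. The count at an unadjusted p under 0.05 moved more. In BPA10 against vehicle it was 5, and became 2 with a filter at the 60th percentile, 8 with only arrays of 1 mouse and 2 to 9 without single arrays. In BPA100 against vehicle it was 2, and became 4 with median centring, 0 with the filter at the 60th percentile, 0 with the mean of probe sets, 6 with only arrays of 1 mouse and 2 to 4 without single arrays. In BPA100 against BPA10 it was 2, and became 6 with no filter, 4 with the replicate block, 6 with only arrays of 1 mouse and 1 to 9 without single arrays. With the replicate block the other 2 counts were 7 and 3. The filter at the 60th percentile tested only 17 members, and Kcnk13, Kcna7, Kcnk12 and Kcnk3 were not among them. The mean of probe sets left Kcnk13 and Kcnk3 untested. The lower counts under these settings therefore do not describe those genes. Deviations of arrays with the same replicate number correlated at 0.19, 0.20 and 0.08 over the 3 pairs of groups, so the numbers were not taken to pair arrays. Median centring moved the overall level by at most 0.04.

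Over the 30 tested named members in 3 comparisons, 34 of 90 differences changed sign under at least 1 alternative, 64 of 1362 values in all. Those 34 had a median size of 0.08 and a largest of 0.36 (Kcnh8 between the doses). For the differences printed above, the lowest and highest values without single arrays were -0.29 and 0.27 for Kcnip1, -0.30 and 0.17 for Kcnma1, -0.14 and 1.45 for Kcnj4, -0.26 and 2.79 for Kcnj9 and -0.62 and 0.089 for Atp4a in BPA10. In BPA100 they were -0.060 and 0.15 for Kcnip1, -0.24 and 0.020 for Kcnh2, -0.076 and 0.25 for Kcnk1, -0.65 and 0.24 for Kcnmb2, -0.019 and 3.03 for Kcnj9, -0.68 and 0.033 for Atp4a and -0.73 and 0.14 for Slc12a5, and between the doses -0.086 and 0.17 for Kcnk13. Kcnip1 was at 0.014 in BPA10 with median centring, and Kcnma1 at -0.20 in BPA100 with the mean of probe sets. The causes were not tested.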
